A study of Homo sapiens with 12 samples.

Results

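The integrated stress response and the unfolded protein response were followed through 36 genes in SHEP cells, a human neuroblastoma line of mesenchymal type. The members were taken by symbol from a list of known targets and regulators, which was drawn up with earlier results of these data known. They fall into an ATF4 arm of 18 genes, an endoplasmic reticulum (ER) chaperone and degradation arm of 15 genes, and the 3 regulators ATF6, XBP1 and ERN1. All 36 were among the 28576 genes measured, and 34 reached the minimum level for testing, a CPM (read count scaled to a library total of 1000000) of at least 0.5 in 3 or more libraries. STC2, a secreted glycoprotein, stayed at or below 0.425 CPM in all 12 libraries, and NUPR1, a small stress-induced chromatin protein, at or below 0.255 CPM. The other 34 members lay above the minimum in all 12 libraries, and 18674 genes passed it in all.

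Poly(A) RNA was sequenced from 4 groups of 3 libraries. Every library came from SHEP cells that carried both an OHT-activated MYCN-ER fusion, in which MYCN is joined to the ligand-binding part of the estrogen receptor, and a Dox-inducible short hairpin RNA (shRNA) against TCEAL1, whose product belongs to a family of proteins related to transcription elongation factor A. Ctrl received neither compound, OHT received 4-hydroxytamoxifen (200 nM), Dox received doxycycline (1 µg/ml), and OHT_Dox received both. Treatment times are not given in the labels, and no group here lacked the fusion or the hairpin. An effect of OHT itself and one of MYCN-ER activity therefore cannot be told apart, nor can an effect of doxycycline and one of TCEAL1 loss. The labels number the replicates without saying that they were separate cultures, so the p-values reflect only how much these 12 libraries vary, which may be technical.

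Cells meet amino acid shortage, heme shortage, viral RNA or misfolded protein in the ER with kinases that phosphorylate the translation factor eIF2. This lowers general protein synthesis while translation of ATF4 rises, so ATF4 protein can change without any change in its mRNA. ATF4 then drives genes for amino acid synthesis and uptake, redox balance and, under lasting stress, cell death. In the unfolded protein response the eIF2 kinase PERK (EIF2AK3) is joined by the sensors IRE1 (ERN1) and ATF6, which raise chaperones, folding enzymes and the machinery that withdraws misfolded proteins from the ER. MYC proteins raise protein synthesis, and both responses are known to bear on the survival of MYC-driven tumor cells.

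The libraries held between 44466458 and 57694970 reads assigned to genes. TCEAL1 stood at 9.84 ± 0.80 CPM (SD, n = 3) in Ctrl against 2.63 ± 0.10 in Dox, and at 8.99 ± 0.76 in OHT against 2.27 ± 0.47 in OHT_Dox, so the hairpin target was lower wherever Dox was given (log2 fold changes -1.72 and -1.79). MYCN mRNA, to which reads of the fusion may contribute, was lower in OHT_Dox than in Dox (425.0 ± 47.4 against 538.0 ± 25.4 CPM, limma adjusted p = 0.0191), and was not called in the other 3 pairwise comparisons. Its part in the values that follow was not tested. The mesenchymal markers VIM (2220 to 3080 CPM), FN1, PRRX1, CD44, YAP1 and SNAI2 were present in all libraries. The adrenergic markers PHOX2A and DBH stayed at or below 0.581 CPM, while HAND2 (47.6 to 64.1 CPM) and GATA3 (7.3 to 10.1 CPM) were present. EPCAM and CDH1 stayed at or below 1.25 CPM, PTPRC at or below 0.413 CPM, and KRT18 lay between 482 and 826 CPM. In 2 libraries the deviation of genes from their group mean followed GC content, in opposite directions (Spearman correlation across genes -0.50 in OHT_Dox replicate 2 and 0.53 in OHT_Dox replicate 3, and between -0.19 and 0.29 in the other libraries).

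The promoters of several members carry the sequence elements through which the 2 responses are known to act, and 7 are shown because they hold those elements or belong to genes described below. The windows are the 250 bases before the annotated start, taken from RefSeq on GRCh38.p14 and written 5′ to 3′ on the gene's own strand, with matches in capitals. They are HSPA5 at chr9:125241344-125241593 (minus strand), HSP90B1 at chr12:103930160-103930409 (plus strand), HERPUD1 at chr16:56931892-56932141 (plus strand), HYOU1 at chr11:119057206-119057455 (minus strand), ASNS at chr7:97872409-97872658 (minus strand), PPP1R15A at chr19:48872171-48872420 (plus strand) and ATF4 at chr22:39520309-39520558 (plus strand).
HSPA5: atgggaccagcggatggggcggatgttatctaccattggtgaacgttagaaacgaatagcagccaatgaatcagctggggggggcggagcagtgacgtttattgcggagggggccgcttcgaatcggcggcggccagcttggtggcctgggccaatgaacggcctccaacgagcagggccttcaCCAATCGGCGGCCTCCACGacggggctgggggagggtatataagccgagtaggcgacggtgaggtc
HSP90B1: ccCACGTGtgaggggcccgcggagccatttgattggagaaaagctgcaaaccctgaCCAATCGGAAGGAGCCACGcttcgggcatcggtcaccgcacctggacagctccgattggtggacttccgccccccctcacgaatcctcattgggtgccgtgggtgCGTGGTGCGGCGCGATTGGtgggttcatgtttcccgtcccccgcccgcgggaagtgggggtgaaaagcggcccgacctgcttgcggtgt
HERPUD1: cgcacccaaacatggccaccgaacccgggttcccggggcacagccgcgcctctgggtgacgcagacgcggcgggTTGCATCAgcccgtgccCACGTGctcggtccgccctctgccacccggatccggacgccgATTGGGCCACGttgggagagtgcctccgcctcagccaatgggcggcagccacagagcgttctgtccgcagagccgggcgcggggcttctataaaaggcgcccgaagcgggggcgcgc
HYOU1: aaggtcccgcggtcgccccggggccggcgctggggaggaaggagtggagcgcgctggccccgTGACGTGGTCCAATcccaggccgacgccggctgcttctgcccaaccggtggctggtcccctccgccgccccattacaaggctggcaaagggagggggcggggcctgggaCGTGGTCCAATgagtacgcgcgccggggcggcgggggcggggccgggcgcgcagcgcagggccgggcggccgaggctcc
ASNS: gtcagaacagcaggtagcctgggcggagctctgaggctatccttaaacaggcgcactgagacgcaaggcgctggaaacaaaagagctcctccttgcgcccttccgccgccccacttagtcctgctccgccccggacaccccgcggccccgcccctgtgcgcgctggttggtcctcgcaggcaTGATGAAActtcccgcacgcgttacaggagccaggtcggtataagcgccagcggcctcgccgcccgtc
PPP1R15A: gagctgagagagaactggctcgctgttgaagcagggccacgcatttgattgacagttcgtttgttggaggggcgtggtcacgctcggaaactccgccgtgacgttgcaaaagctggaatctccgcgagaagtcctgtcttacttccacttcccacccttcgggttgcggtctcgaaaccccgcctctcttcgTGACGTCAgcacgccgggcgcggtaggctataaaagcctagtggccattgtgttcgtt
ATF4: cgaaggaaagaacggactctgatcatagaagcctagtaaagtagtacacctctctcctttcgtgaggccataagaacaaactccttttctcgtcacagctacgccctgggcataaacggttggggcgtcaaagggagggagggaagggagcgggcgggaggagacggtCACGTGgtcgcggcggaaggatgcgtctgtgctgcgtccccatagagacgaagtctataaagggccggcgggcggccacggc

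A set of 6 elements was searched on both strands. They were the ER stress element (ERSE, which is CCAAT, 9 bases of any kind and CCACG), the second ER stress element (ERSE-II, which is ATTGG, 1 base of any kind and CCACG), the unfolded protein response element (UPRE, TGACGTGG), the C/EBP-ATF response element (CARE, TGATGNAA), the cyclic AMP response element (CRE, TGACGTCA) and the E-box CACGTG, which MYC proteins bind with MAX. ERSE or ERSE-II was found in 8 of the 15 ER arm genes, in none of the 16 ATF4 arm genes with a window, and in 0.157% of 27305 annotated genes with a window. ERSE was in HSPA5, HSP90B1 (at 2 places), CALR, CRELD2 and PDIA6, and ERSE-II was in HERPUD1, HYOU1 (at 2 places) and SDF2L1. XBP1 also held an ERSE. CARE was found in ASNS, ATF3, CEBPG and CHAC1 of the ATF4 arm and in HERPUD1 of the ER arm, against 3.89% of all genes. The CRE was found in PPP1R15A alone among the members (2.03% of all genes). The E-box was in ATF4, DNAJB9, HERPUD1 and HSP90B1 (7.73% of all genes). The UPRE was in HYOU1 alone (0.78% of all genes), where it overlaps an ERSE-II, so that its capitals run together. A match describes letters in these windows only, and 34 of the 36 members had a window.

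Levels between genes can be compared only per length, here as CPM per kilobase of annotated exon averaged over the 12 libraries. By that measure the ER lumen chaperones were the most abundant members. CALR, the calcium-binding lectin chaperone calreticulin, stood at 301 CPM per kilobase, HSP90B1 (the ER form of HSP90) at 188, HSPA5 (the ER form of HSP70, also called BiP) at 138, and the disulfide isomerases PDIA6 and PDIA4 at 94.2 and 85.3. In the ATF4 arm, ATF4 led at 51.1 CPM per kilobase and its relative ATF5 followed at 40.9. DDIT3, which encodes the pro-apoptotic factor CHOP, stood at 7.65 CPM per kilobase. CHAC1, a glutathione-degrading enzyme, stood at 1.03, ERN1 at 1.34 and the lipoprotein receptor VLDLR at 0.51. The XBP1 value of 18.5 counts spliced and unspliced mRNA together.

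When OHT was given without Dox, members of the ATF4 arm moved in both directions, while the called members of the ER arm all fell. In the ATF4 arm, 3 of 16 measured genes rose (CTH, ALDH1L2 and TRIB3) and 4 fell (PPP1R15A, SESN2, DDIT3 and ATF5). In the ER arm, 0 of 15 rose and 3 fell (HERPUD1, MANF and CALR), and none of ATF6, XBP1 and ERN1 was called. Over all 18674 genes, 21.4% were called in this comparison, 12.6% as higher and 8.79% as lower, by limma at an adjusted p below 0.05. The ATF4 arm's 7 calls of 16 are above that share and the ER arm's 3 of 15 are close to it. The members were chosen with earlier results of these data known, so the higher share is no evidence about the arm. With Dox present the ATF4 arm had 2 rises and 2 falls among 16 genes, close to the 26.0% of all genes called there. For OHT against Ctrl, 12 of the 34 members had groups that did not overlap, against 34.2% of all genes. In that comparison the median log2 fold change was -0.04 in the ATF4 arm and -0.08 in the ER arm, against -0.01 over all genes. Without OHT replicate 3 the ATF4 arm median was -0.0024, and it was -0.0755 once a trend with length and GC was removed. Of the ER arm genes, 0 had a rise even at an unadjusted p below 0.05, and edgeR and DESeq2 also called 0 higher. Single libraries moved the counts of falls, to 1 ER arm gene without OHT replicate 1 and 5 without Ctrl replicate 1, and to 2 ATF4 arm genes without Ctrl replicate 2.

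The genes that fell most in the ATF4 arm were 2 that feed back on stress signaling. PPP1R15A, also called GADD34, brings a phosphatase to eIF2 and so ends the eIF2 kinase signal. It was at 25.3, 31.5 and 24.0 CPM in the Ctrl libraries, 15.7, 14.6 and 16.2 with OHT, 27.5, 27.2 and 26.7 with Dox, and 18.2, 17.4 and 16.4 with both. All 6 libraries with OHT lay below all 6 libraries without it. The log2 fold change was -0.77 ± 0.09 (SE) for OHT against Ctrl (limma adjusted p = 3.6e-06) and -0.63 ± 0.09 for OHT_Dox against Dox (adjusted p = 3.3e-05). SESN2 encodes sestrin 2, which restrains the growth kinase mTORC1 when leucine is short. Its level was 16.5, 12.5 and 17.2 CPM in the Ctrl libraries, 9.18, 8.97 and 9.15 with OHT, 16.9, 16.0 and 19.1 with Dox, and 12.03, 11.99 and 12.8 with both. The OHT libraries were the lowest and nearly equal, and each OHT group lay below its partner without overlap. The change was -0.72 ± 0.11 without Dox (limma adjusted p = 6.1e-05) and -0.48 ± 0.11 with Dox (adjusted p = 2.5e-03).

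DDIT3 and ATF5, both transcription factors of the ATF4 arm, fell less. DDIT3 was at 9.69, 12.4 and 11.3 CPM in the Ctrl libraries, 8.60, 8.63 and 8.18 with OHT, 9.68, 10.5 and 11.9 with Dox, and 9.84, 9.26 and 9.89 with both. Ctrl and OHT did not overlap, and the difference was -0.37 ± 0.10 (limma adjusted p = 0.015). With Dox the groups overlapped and the difference was -0.13 ± 0.10. ATF5 was at 117, 149 and 127 CPM in the Ctrl libraries, 91.4, 108 and 113 with OHT, 116, 122 and 116 with Dox, and 124, 126 and 139 with both. It fell by 0.33 ± 0.08 on the log2 scale with OHT alone (limma adjusted p = 7.1e-03) and was not called with Dox (0.14 ± 0.08). The DDIT3 call was lost without Ctrl replicate 2 (adjusted p = 0.0878) or OHT replicate 3 (0.0575), and the ATF5 call without Ctrl replicate 2 (0.0551) or OHT replicate 1 (0.0535). Both genes overlap genes on the other strand at high levels (238 CPM for the highest at DDIT3, 208 CPM for the highest at ATF5), and the strand setting of the counting is not stated.

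Rising members were led by CTH, cystathionine gamma-lyase, which makes cysteine for glutathione synthesis. CTH was at 4.73, 4.36 and 5.27 CPM in the Ctrl libraries, 9.07, 9.28 and 7.04 with OHT, 6.09, 5.67 and 5.54 with Dox, and 9.83, 8.58 and 7.83 with both. Each library with OHT was above each library without it. The log2 fold change was 0.76 ± 0.12 without Dox (limma adjusted p = 1.5e-04) and 0.56 ± 0.12 with Dox (adjusted p = 2.1e-03). TRIB3 encodes a pseudokinase that restrains AKT and feeds back on ATF4 and CHOP. It was at 36.2, 34.9 and 38.9 CPM in the Ctrl libraries, 51.3, 50.2 and 43.7 with OHT, 37.4, 32.1 and 36.8 with Dox, and 43.5, 44.4 and 51.5 with both. Again the 6 libraries with OHT did not overlap the other 6, and both differences were 0.39 ± 0.08 (limma adjusted p = 1.8e-03 without Dox and 1.7e-03 with it).

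ALDH1L2, a mitochondrial enzyme of folate one-carbon metabolism, was at 12.8, 9.01 and 10.7 CPM in the Ctrl libraries, 19.1, 15.0 and 13.4 with OHT, 12.9, 11.95 and 12.7 with Dox, and 14.2, 15.3 and 13.0 with both. OHT replicate 1 was the highest, and even the lowest OHT library exceeded the highest Ctrl library. The rise was 0.53 ± 0.12 without Dox (limma adjusted p = 4.3e-03), while with Dox the estimate was 0.17 ± 0.12 and was not called. A gene at 24.8 CPM overlaps ALDH1L2 on the other strand.

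**Figure D1:**
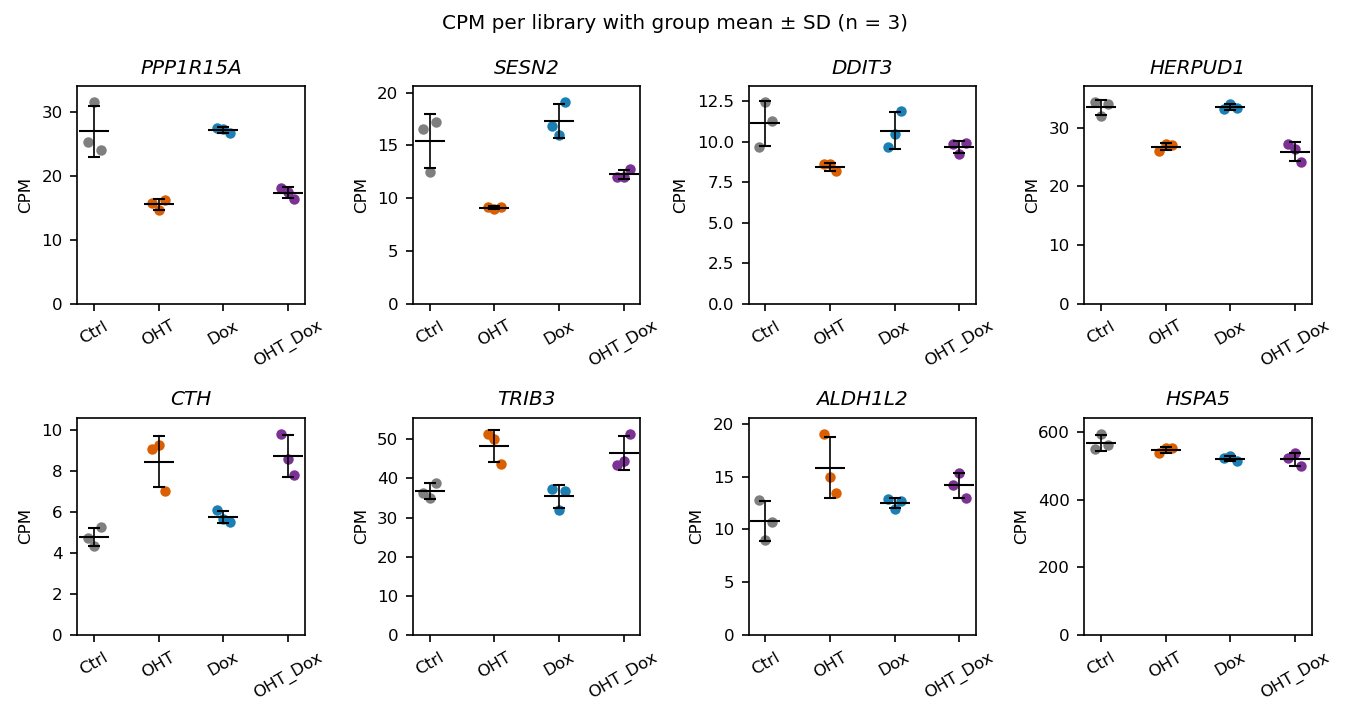
CPM in each library (points) for PPP1R15A, SESN2, DDIT3, HERPUD1, CTH, TRIB3, ALDH1L2 and HSPA5, with the group mean and SD (n = 3) as black bars, by group on the horizontal axis. PPP1R15A and HERPUD1 are lower and CTH and TRIB3 higher in both OHT groups, while HSPA5 stays between 498 and 595 CPM.

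The mRNAs of ATF4, XBP1 and ERN1 were called in no comparison, whereas ATF6 rose from Ctrl to Dox and is described with that comparison. ATF4 was at 134, 133 and 137 CPM in the Ctrl libraries, 124, 135 and 119 with OHT, 133, 120 and 127 with Dox, and 123, 125 and 130 with both. The OHT range spans that of OHT_Dox, and the log2 difference between OHT and Ctrl was -0.10 with a 95% interval from -0.22 to 0.02. With Dox the difference was 0.00, with an interval from -0.12 to 0.12. XBP1, whose spliced form is the transcription factor of the IRE1 branch, lay between 51.3 and 61.9 CPM (a difference of 0.06 with an interval from -0.06 to 0.18 for OHT against Ctrl). ERN1, which encodes IRE1 itself, lay between 12.7 and 16.6 CPM and differed by 0.16 ± 0.09 without Dox and by -0.14 ± 0.09 with it. From Ctrl to Dox the ERN1 estimate was 0.26 ± 0.09, and the groups did not overlap. It was not called (limma adjusted p = 0.090), except when Ctrl replicate 1 was left out. The XBP1 groups did not overlap there either, with an estimate of -0.12 ± 0.06 (limma adjusted p = 0.202).

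HERPUD1 was the ER arm gene with the largest change, and it fell in both comparisons with OHT. Its product sits in the ER membrane and helps assemble the complex that withdraws misfolded proteins for degradation. Its promoter, shown above, holds an ERSE-II, a CARE and an E-box. HERPUD1 was at 34.3, 32.0 and 34.1 CPM in the Ctrl libraries, 26.0, 27.2 and 27.0 with OHT, 33.1, 34.0 and 33.3 with Dox, and 27.2, 26.4 and 24.2 with both. The 6 libraries with OHT all lay below the 6 without it. The log2 fold change was -0.32 ± 0.07 without Dox (limma adjusted p = 1.9e-03) and -0.37 ± 0.07 with Dox (adjusted p = 4.3e-04).

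MANF and CALR fell with OHT in the absence of Dox. MANF, an ER-resident protein that stabilizes HSPA5 complexes and is also secreted, was at 86.1, 91.1 and 92.7 CPM in the Ctrl libraries, 72.3, 79.9 and 80.5 with OHT, 84.7, 83.2 and 80.8 with Dox, and 77.3, 80.0 and 79.8 with both. CALR was at 809, 847 and 890 CPM in the Ctrl libraries, 687, 756 and 793 with OHT, 834, 851 and 844 with Dox, and 832, 814 and 860 with both. OHT replicate 1 was the lowest library for both genes, and Ctrl and OHT did not overlap. The falls were small, at -0.21 ± 0.06 for MANF (limma adjusted p = 0.010) and -0.19 ± 0.06 for CALR (adjusted p = 0.020). Both calls were lost without OHT replicate 1 (adjusted p = 0.0736 and 0.127), and that of CALR also without Ctrl replicate 3 (0.0914), with no filter on low values (0.053) and in a separate fit of the 2 groups (0.0754). A gene at 109 CPM overlaps CALR on the other strand. With Dox the estimates were -0.07 ± 0.06 and -0.01 ± 0.06.

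Of the 5 most abundant chaperones CALR was the one called when OHT was given without Dox, and HSPA5, HSP90B1, PDIA6 and PDIA4 were not. HSPA5, whose rise is a common sign of ER stress, was at 550, 595 and 560 CPM in the Ctrl libraries, 537, 551 and 552 with OHT, 522, 528 and 513 with Dox, and 522, 537 and 498 with both. The OHT difference was -0.06 (95% interval -0.16 to 0.05) without Dox and 0.00 (-0.11 to 0.10) with it, and neither was called by limma. HSP90B1 lay between 805 and 1042 CPM over the 12 libraries, PDIA6 between 361 and 428, PDIA4 between 266 and 288, and the HSP70-type chaperone HYOU1 between 201 and 223. The other uncalled ER arm genes were SDF2L1 (26.6 to 37.5 CPM), which keeps folding clients soluble, CRELD2 (30.6 to 46.1 CPM), a secreted ER protein, SEL1L (56.0 to 75.8 CPM), the adaptor of the HRD1 ubiquitin ligase, and SEC61B (50.6 to 60.8 CPM), a subunit of the translocon. With all libraries and the main settings, limma called none of these 8 in any comparison. Between OHT_Dox and Dox, SEL1L was called lower under 4 of 24 alternatives and HYOU1 higher under 3, and between OHT and Ctrl CRELD2 was called lower under 2. Ctrl replicate 2 held the highest value of HSP90B1, PDIA6, HSPA5, SDF2L1 and CRELD2. Of the 36 members 10 overlap a gene on the other strand at 10 CPM or more, HSP90B1, PDIA6, CRELD2, HYOU1 and PCK2 among them.

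Giving OHT on top of Dox was again followed by called falls in the ER arm, of HERPUD1 and 3 other genes. In this comparison of OHT_Dox with Dox, 2 of 16 ATF4 arm genes rose (CTH and TRIB3) and 2 fell (PPP1R15A and SESN2). In the ER arm 0 of 15 rose and 4 fell (HERPUD1, DNAJC3, EDEM1 and DNAJB9). Over all genes 26.0% were called, 11.5% as higher and 14.5% as lower, so the members' 8 of 34 calls are near that share. Groups did not overlap for 15 members, against 41.2% of all genes. At an unadjusted p below 0.05, 1 ER arm gene was higher, and edgeR and DESeq2 each called that gene, HYOU1, higher after their own scaling. The medians were -0.05 in the ATF4 arm and -0.01 in the ER arm, against -0.03 over all genes, and the ER median became 0.02 with TMM scaling (a rescaling of library sizes by trimmed mean).

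The 3 ER arm genes called in this comparison besides HERPUD1 act in folding control and disposal. DNAJC3, also called p58IPK, is an HSPA5 cochaperone and an inhibitor of eIF2 kinases. It was at 51.5, 53.1 and 44.8 CPM in the Ctrl libraries, 48.4, 45.4 and 47.2 with OHT, 60.5, 57.6 and 56.5 with Dox, and 47.8, 49.9 and 44.8 with both. Dox alone held the 3 highest values, and the log2 difference between OHT_Dox and Dox was -0.29 ± 0.07 (limma adjusted p = 3.7e-03). EDEM1, a lectin that routes misfolded glycoproteins to degradation, was at 73.3, 61.0 and 59.7 CPM in the Ctrl libraries, 66.8, 59.0 and 60.6 with OHT, 74.2, 73.2 and 71.2 with Dox, and 59.5, 62.6 and 54.9 with both. It fell by 0.30 ± 0.08 on the log2 scale from Dox to OHT_Dox (limma adjusted p = 5.4e-03).

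DNAJB9, or ERdj4, is a cochaperone that keeps IRE1 bound to HSPA5. It was at 10.4, 12.3 and 11.4 CPM in the Ctrl libraries, 9.21, 10.1 and 8.90 with OHT, 11.99, 12.3 and 12.01 with Dox, and 9.55, 10.8 and 8.70 with both. Each OHT group lay below its own partner without overlap, although OHT_Dox replicate 2 was above Ctrl replicate 1. The difference was -0.31 ± 0.10 with Dox (limma adjusted p = 0.025) and -0.26 ± 0.10 without Dox (adjusted p = 0.071, not called). Genes at up to 40.7 CPM overlap DNAJB9 on the other strand. Leaving out Dox replicate 1 together with OHT_Dox replicate 3 ended the calls of DNAJC3 (adjusted p = 0.0759), EDEM1 (0.0827) and DNAJB9 (0.178), and leaving out any Dox library, OHT_Dox replicate 1 or OHT_Dox replicate 3 ended that of DNAJB9 (0.0536 to 0.122). Removing a length and GC trend from each library ended those of DNAJC3 (-0.16, adjusted p = 0.053) and DNAJB9 (-0.20, adjusted p = 0.118).

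**Figure D2:**
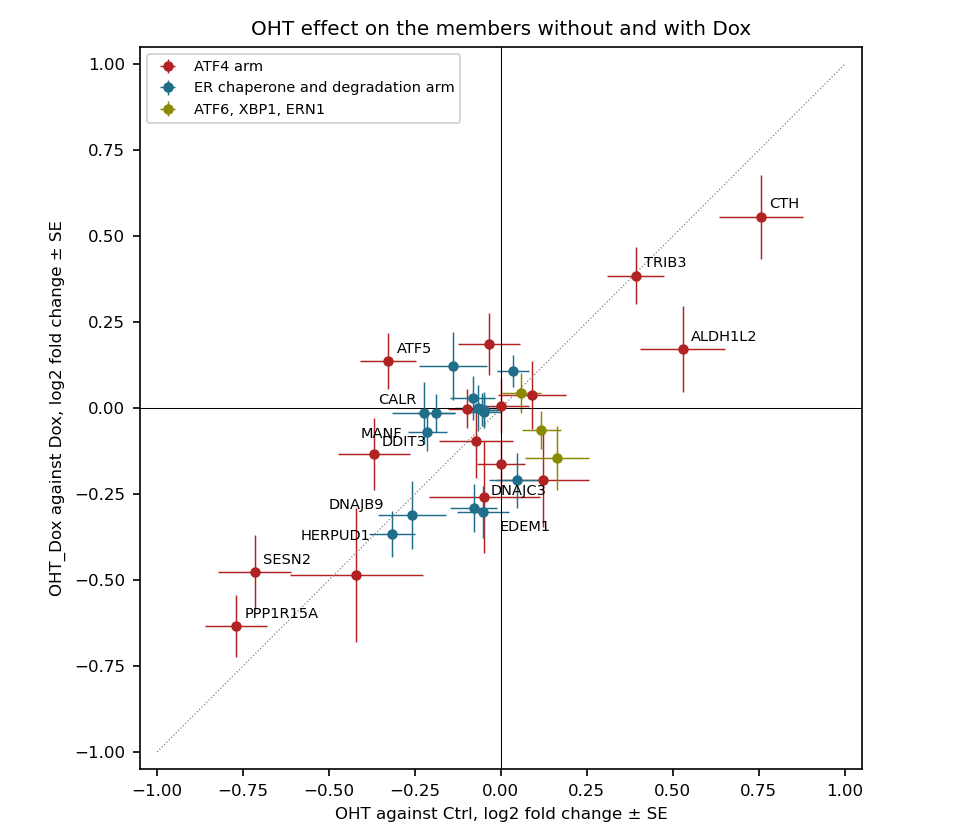
Log2 fold change ± SE of each measured member for OHT against Ctrl (horizontal axis) and for OHT_Dox against Dox (vertical axis), colored by arm, with a dotted line of equal change and names for members called in either comparison. TRIB3, CTH, SESN2, PPP1R15A and HERPUD1 lie near the dotted line away from the origin, and ATF5 lies on different sides of 0 on the 2 axes.

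The comparisons of OHT with and without Dox share no library, so the 2 sets of values can be read against each other. Of the 34 members, 25 had the same sign in both, and 67.6% of all genes did. By arm these were 12 of 16 in the ATF4 arm, 12 of 15 in the ER arm and 1 of the 3 regulators. Called in both were 5 members (PPP1R15A, SESN2, CTH, TRIB3 and HERPUD1), each in the same direction, and their 10 calls held under all 24 alternative settings. A further 5 were called without Dox only and 3 with Dox only, but the difference between the 2 effects, the interaction, was called for 0 members and 0.0% of all genes by limma. At an unadjusted p below 0.05 it passed for 7 of 34 members, edgeR called 0 genes and DESeq2 called 1 gene in all, which was no member. The share of all genes below that unadjusted threshold is not given here, so the count of 7 cannot be set against it.

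ATF5 had the smallest interaction p among members. Its OHT effect was 0.46 ± 0.12 higher with Dox than without it on the log2 scale (unadjusted p = 7.7e-04, limma adjusted p = 0.221). Without Ctrl replicate 1 the interaction was called for ATF5 and EDEM1 and for 1039 genes in all, so this count rests on that library. The other members below 0.05 before adjustment were EDEM1 (-0.25 ± 0.11), SEL1L (-0.26 ± 0.11), ERN1 (-0.31 ± 0.13), ATF6 (-0.18 ± 0.08), DNAJC3 (-0.21 ± 0.10) and CALR (0.18 ± 0.08). All 6 had an adjusted p between 0.275 and 0.307.

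**Figure D3:**
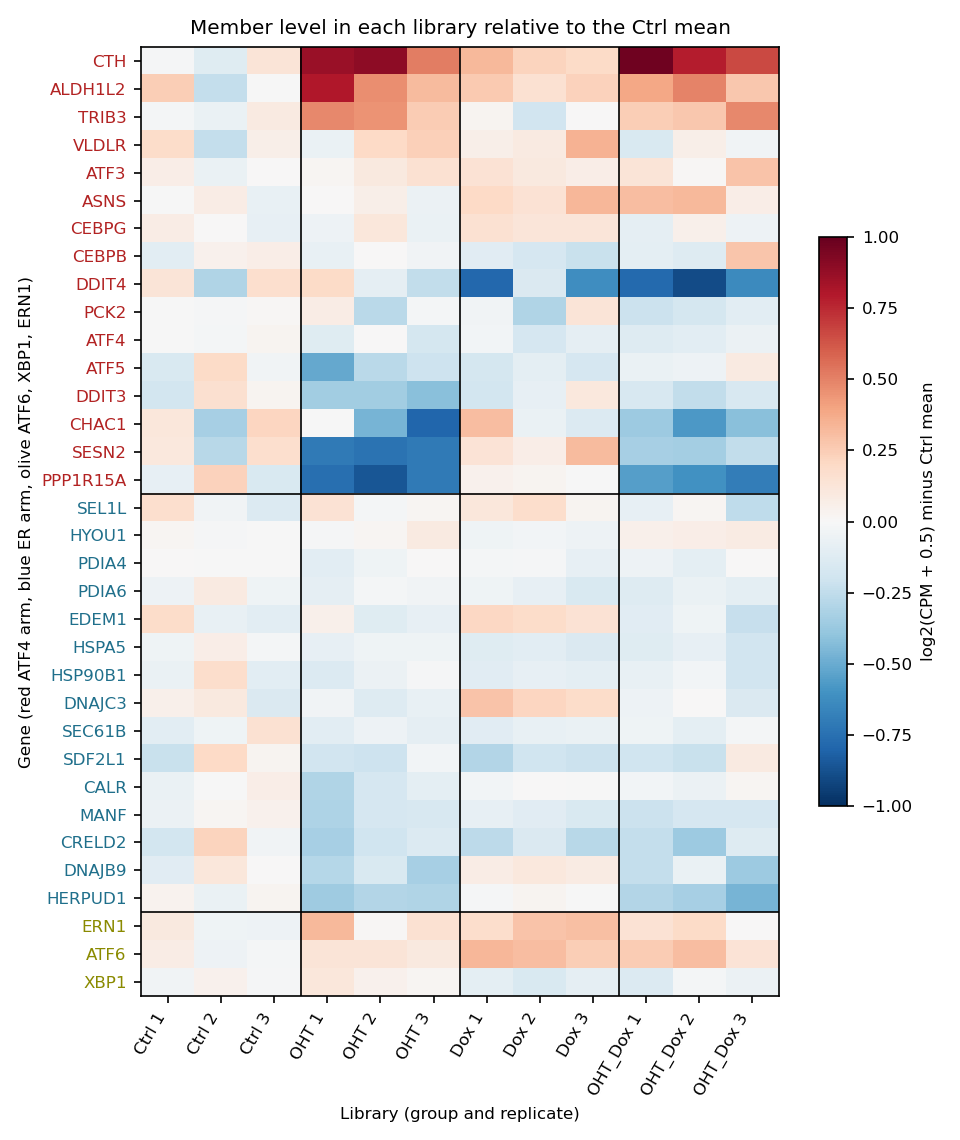
Level of each measured member in each of the 12 libraries as log2(CPM + 0.5) minus its Ctrl mean (color, red above and blue below), grouped by arm and ordered by the OHT against Ctrl fold change. CTH and TRIB3 are red and SESN2, PPP1R15A and HERPUD1 blue in all 6 libraries with OHT, while DDIT4 is darkest in the OHT_Dox libraries and Dox replicates 1 and 3.

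Giving Dox without OHT was followed by calls for 2 of the 34 measured members. In Dox against Ctrl, 0 of 16 ATF4 arm genes were called in either direction, 1 of 15 ER arm genes rose (DNAJC3), and 1 of the 3 regulators rose (ATF6). Over all genes 8.29% were called, 5.68% as higher and 2.61% as lower, so the members' 2 of 34 calls are near that share. Groups did not overlap for 14 members, against 28.9% of all genes. The split of calls depended on scaling, with 1061 genes higher and 487 lower as deposited and 519 higher and 771 lower with TMM scaling. At an unadjusted p below 0.05, 1 ATF4 arm gene was higher and 1 lower, and 3 ER arm genes were lower. By edgeR and by DESeq2 1 ATF4 arm gene was lower (DDIT4). DESeq2 also called 3 ER arm genes lower (HSPA5, CRELD2 and SDF2L1). Without Ctrl replicate 1 limma called 2 of them (CRELD2 and SDF2L1). It called HSPA5 once a length and GC trend was removed, alone and with the replicate block. In the main fit the HSPA5 estimate was -0.13 ± 0.05 (limma adjusted p = 0.107), and its Dox and Ctrl groups did not overlap. The medians were 0.03 in the ATF4 arm and -0.04 in the ER arm, against 0.05 over all genes, and the ATF4 arm median became -0.02 with TMM scaling.

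ATF6, the ER membrane sensor that is cut in the Golgi to release a transcription factor for chaperone genes, was at 99.1, 90.9 and 92.7 CPM in the Ctrl libraries, 103, 103 and 101 with OHT, 119, 117 and 112 with Dox, and 112, 116 and 104 with both. Every library with Dox lay above every library without it. The rise from Ctrl to Dox was 0.30 ± 0.06 on the log2 scale (limma adjusted p = 6.0e-03). With OHT present the difference was 0.11 ± 0.06 and was not called. Once a trend with length and GC was taken out, the rise from Ctrl to Dox was 0.14 and was not called (adjusted p = 0.079). The DNAJC3 rise of 0.23 ± 0.07 (adjusted p = 0.048) was lost under 15 of 24 alternatives, TMM scaling among them (0.17, adjusted p = 0.126), and under removal of single libraries (Ctrl replicates 2 and 3, OHT replicate 3, any Dox library and OHT_Dox replicate 1, adjusted p 0.0597 to 0.23).

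DDIT4 and ATF5 were the members called when OHT_Dox was compared with OHT. In this comparison 2.1% of all genes were called, 0.509% as higher and 1.59% as lower, and 9 members had groups that did not overlap, against 18.7% of all genes. The ATF4 arm had 1 gene higher and 1 lower of 16, and the ER arm had 0 of 15 called, with 1 higher at an unadjusted p below 0.05 and 0 called by edgeR or DESeq2. DDIT4, also called REDD1, restrains mTORC1 under hypoxia, glucocorticoids and stress. It was at 8.88, 6.45 and 9.12 CPM in the Ctrl libraries, 9.29, 7.54 and 6.71 with OHT, 4.48, 7.24 and 5.08 with Dox, and 4.48, 4.09 and 4.99 with both. The OHT_Dox libraries were all below the OHT libraries, with a log2 difference of -0.72 ± 0.16 (limma adjusted p = 0.019). Between Dox and Ctrl the groups overlapped through Dox replicate 2 and Ctrl replicate 2, and the difference of -0.51 ± 0.16 was not called (adjusted p = 0.054).

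Neither DDIT4 nor ATF5 kept its call when single libraries were left out. The DDIT4 call was lost without OHT replicate 1 (-0.60, adjusted p = 0.116), OHT_Dox replicate 1 (0.0754) or OHT_Dox replicate 2 (0.0924). ATF5 was 0.32 ± 0.08 higher in OHT_Dox than in OHT (limma adjusted p = 0.0496), a call lost under 16 of 24 alternatives, among them removal of OHT replicate 1 (0.234) or 2 (0.0666), of any OHT_Dox library (0.0904 to 0.202), and of Ctrl replicate 3 or any Dox library (0.0528 to 0.0694). SESN2 had the largest positive estimate of the arm in this comparison (0.41 ± 0.11) with an adjusted p just above the threshold (0.0503), and 12 of 24 alternatives called it. Its OHT and OHT_Dox libraries did not overlap.

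**Figure D4:**
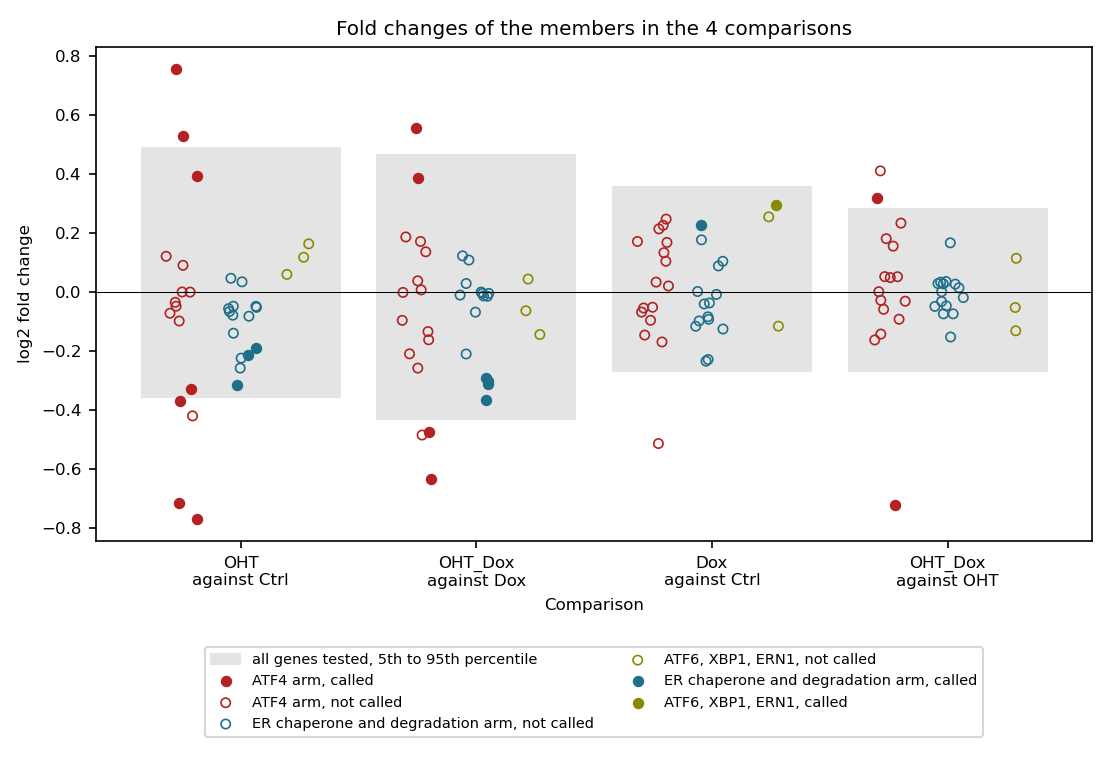
Log2 fold change of each measured member (points, filled where called) in the 4 pairwise comparisons on the horizontal axis, colored by arm, over the 5th to 95th percentile of all genes tested (grey). With OHT against Ctrl the ATF4 arm runs from -0.77 to 0.76 and the ER arm from -0.32 to 0.05.

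The 2 arms, as listed here, differed in how widely their members spread. For OHT against Ctrl the ATF4 arm ran from -0.77 to 0.76 and the ER arm from -0.32 to 0.05, while the 5th and 95th percentiles of all genes were -0.36 and 0.49. For OHT_Dox against Dox the ranges were -0.63 to 0.56 and -0.37 to 0.12, and those percentiles were -0.43 and 0.46. The 45 measured ER genes outside the member list, described below, ran from -0.43 to 0.80 and from -0.59 to 0.64 in these 2 comparisons. The upper end was MAP3K5 both times, a stress kinase downstream of IRE1, and a range over more genes tends to be wider. The narrow ER arm range therefore describes its 15 chosen genes only. Standard errors were between 0.06 and 0.19 in the ATF4 arm and between 0.05 and 0.10 in the ER arm, so the ranges of the arms are not equally precise. The median over members, taken library by library against the Ctrl mean, was between -0.12 and -0.07 in the 3 OHT libraries and between -0.15 and -0.07 in the 3 OHT_Dox libraries for the ER arm, below its Ctrl range of -0.05 to 0.02. The Dox libraries lay between -0.07 and -0.03 and overlapped that range. For the ATF4 arm, the OHT libraries lay between -0.06 and 0.00 and overlapped the Ctrl range of -0.04 to 0.02. The OHT_Dox libraries of the ATF4 arm lay between -0.11 and -0.04, with replicates 1 and 2 below that Ctrl range and replicate 3 within it. Its Dox libraries lay between -0.02 and 0.09, with replicates 1 and 3 above the Ctrl range and replicate 2 within it. The Ctrl values lie around their own mean by construction. Over all genes tested, the same median was between -0.03 and 0.02 in the OHT libraries and between 0.02 and 0.07 in the Dox libraries. It was between 0.01 and 0.02 in the OHT_Dox libraries. The arm medians are not adjusted for these shifts, so how the groups compare depends on scaling.

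**Figure D5:**
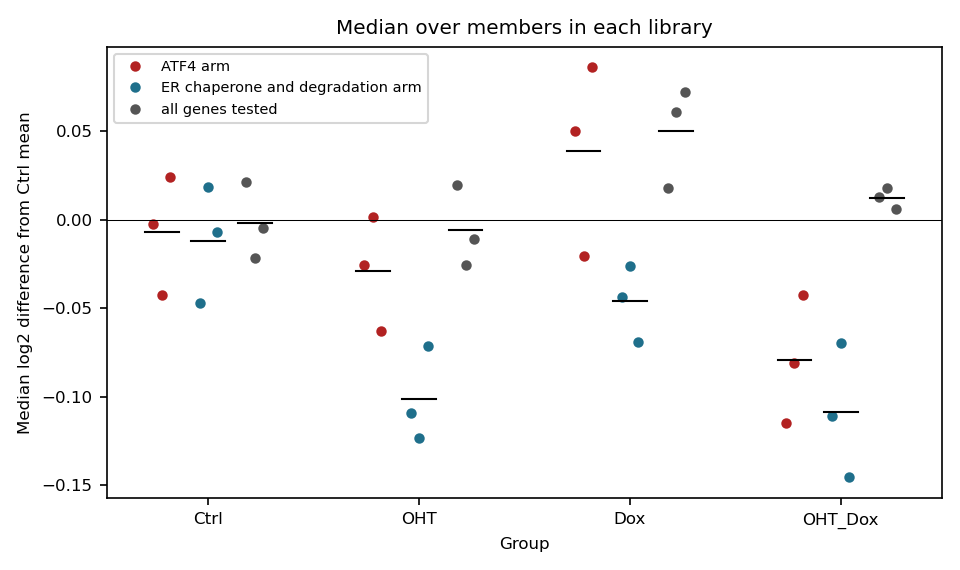
Median over the measured members of each arm, and over all genes tested, of the log2 difference from the Ctrl mean in each library (points), with the group mean as a bar, by group on the horizontal axis. The ER arm points of OHT and OHT_Dox lie between -0.15 and -0.07, and all points lie between -0.15 and 0.09.

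Taken over the 5 comparisons, interaction included, 15 of the 34 measured members were called at least once and 19 never. The uncalled ATF4 arm genes besides ATF4 were ASNS (asparagine synthetase), CHAC1, ATF3, PCK2 (mitochondrial phosphoenolpyruvate carboxykinase), CEBPB, CEBPG and VLDLR. ASNS, with a CARE in its promoter, was at 23.2 to 25.6 CPM in Ctrl and 23.3 to 25.4 CPM in OHT, a difference of 0.00 with an interval from -0.17 to 0.17. It was at 27.0 to 30.8 CPM in Dox and 25.6 to 30.7 CPM in OHT_Dox, and the difference of 0.23 ± 0.08 between Dox and Ctrl was not called (adjusted p = 0.083). CHAC1 was at 1.84 to 2.93 CPM in Ctrl and 1.20 to 2.45 CPM in OHT, and its estimates of -0.42 ± 0.19 and -0.49 ± 0.19 with OHT were not called (adjusted p = 0.134 and 0.073), although 1 and 5 of 24 alternatives called them lower. ATF3, an early stress factor with a CARE in its promoter, lay between 7.69 and 9.98 CPM in all libraries. PCK2 lay between 11.8 and 16.1 CPM, CEBPB between 23.9 and 34.0, CEBPG between 31.7 and 37.6 and VLDLR between 3.78 and 5.92. CEBPB and CEBPG encode partners with which ATF4 binds its target sites. ATF4, ASNS and XBP1 have annotated pseudogenes of the same name, and how the counting treated reads shared with these is not stated.

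Upstream of ATF4, 14 genes for eIF2 kinases, eIF2, its exchange factor eIF2B, the second eIF2 phosphatase subunit and the separate initiation factor EIF2A were read from the same fit. With OHT alone 1 rose and 2 fell, a share close to the 21.4% of all genes called. With OHT and Dox 1 rose and 2 fell as well, below the 26.0% of all genes called there. EIF2AK3, which encodes PERK, was at 15.1, 11.95 and 11.96 CPM in the Ctrl libraries, 10.7, 10.5 and 10.2 with OHT, 14.9, 16.1 and 15.1 with Dox, and 11.3, 11.6 and 10.2 with both. The OHT groups did not overlap with their partners, and the falls were -0.30 ± 0.10 (limma adjusted p = 0.036) and -0.46 ± 0.10 (adjusted p = 1.5e-03). EIF2B4, an eIF2B subunit, rose by 0.22 ± 0.06 and 0.18 ± 0.06. EIF2S2, the beta subunit of eIF2, fell with OHT alone (-0.24 ± 0.07), and PPP1R15B, the constitutive partner of the phosphatase, fell with OHT and Dox (-0.28 ± 0.06). None of the 14 was called in Dox against Ctrl, where 5 passed an unadjusted p below 0.05, or in OHT_Dox against OHT, where 0 did.

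Among 26 other ATF4 and amino acid response genes, 9 rose and 3 fell with OHT alone, and 8 rose and 4 fell with OHT on top of Dox, against 21.4% and 26.0% of all genes called in either direction. The smallest p-values among the rises were those of the paired subunits of a leucine transporter. SLC7A5 was at 204, 185 and 205 CPM in the Ctrl libraries, 437, 415 and 416 with OHT, 193, 194 and 187 with Dox, and 395, 392 and 441 with both, a rise of 1.09 ± 0.06 in both comparisons (limma adjusted p = 1.3e-10 and 1.6e-10). SLC3A2, its partner, rose by 0.46 ± 0.06 and 0.62 ± 0.06. PSAT1, an enzyme of serine synthesis, rose by 0.36 ± 0.05 with OHT alone. CEBPD rose by 0.69 ± 0.11 and 0.74 ± 0.11, and SLC6A9, a glycine transporter, by 0.53 ± 0.13 with OHT alone, both more than SLC3A2 there. The falls were led by GDF15, a secreted stress cytokine, which went from 12.6 ± 1.00 to 7.85 ± 0.99 CPM without Dox (-0.65 ± 0.10) and from 13.3 ± 0.52 to 7.95 ± 0.29 CPM with it (-0.70 ± 0.10). CARS1, a cysteinyl-tRNA synthetase, fell by 0.25 ± 0.06 and 0.24 ± 0.06. None of the 26 was called in the 2 comparisons of Dox, where 7 and 7 passed an unadjusted p below 0.05.

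Among 45 measured genes of ER folding, degradation and translocation outside the member list, 7 rose and 7 fell with OHT alone, against 21.4% of all genes called. The rises were led by MAP3K5, the stress kinase ASK1 downstream of IRE1 (0.80 ± 0.10), SEC31A of the COPII coat (0.39 ± 0.06) and ERO1A, which oxidizes the disulfide isomerases (0.32 ± 0.05). The falls with the smallest p were those of CREB3L1, an ER-anchored transcription factor (-0.43 ± 0.08), DNAJB11, an HSPA5 cochaperone (-0.29 ± 0.06), and SSR2 of the translocon-associated complex (-0.25 ± 0.05), and CREB3 (-0.37 ± 0.08) and HSPA13 (-0.32 ± 0.08) fell by more than DNAJB11. With Dox present, 3 rose and 4 fell with OHT, below the 26.0% of all genes called. MAP3K5 (0.64 ± 0.10) and SEC31A (0.28 ± 0.06) again rose, and HSPA13, an HSP70-type ER chaperone, fell most (-0.59 ± 0.08). Dox against Ctrl gave 3 higher and 1 lower, near the 8.29% of all genes called there. SPCS3 of the signal peptidase was highest by p (0.23 ± 0.06) and CREB3L1 was the gene that fell (-0.37 ± 0.08). OHT_Dox against OHT gave 1 higher, DNAJB11 (0.22 ± 0.06), near the 2.1% of all genes called there.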

How the data were processed

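Poly(A) RNA from SHEP cells was enriched and made into libraries with a directional kit, per the labels' protocols. The authors deposited 1 table of CPM for 28576 genes in 12 libraries. The submitters' processing notes list featureCounts, STAR, Bowtie, Bowtie2, DRAGEN and FastQC with the builds hg19 and mm10, without saying which made this table. The annotation and the strand setting of the counting are not given in the sources used here. In each library 100.0% of the deposited CPM values were whole multiples of 1 read (tolerance 0.01 reads), which gave the read totals.

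Genes with at least 0.5 CPM in at least 3 libraries (18674) were transformed to log2(CPM + 0.5), which draws the fold changes of low genes towards 0. The model (limma 3.58.1, R 4.3.3, mean trend) had 4 group means and 1 shared spread. Groups were taken from the sample titles. P-values are two-sided and adjusted by Benjamini-Hochberg over all genes tested, and a call is an adjusted p below 0.05. Intervals are at 95%. Counts at an unadjusted p below 0.05 are given without the share of all genes below it, and describe the listed genes only. Alternatives were edgeR 4.0.16 (quasi-likelihood) and DESeq2 1.42.0 on the recovered reads, other pseudocounts (0.1 and 1), no filter or 2 CPM, TMM scaling, a replicate block, removal of a length and GC trend, separate fits and leaving out libraries. The fits were tested on simulated data. Exon lengths and overlapping genes came from GENCODE release 29, to which 28572 genes matched by identifier, and promoter windows from RefSeq (GRCh38.p14). Coordinates of the deposited build were not used here.

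The members, arms and lists were chosen with earlier results of these data known. Every member is accounted for. Members called in any comparison are given library by library, and others by range. ATF4, DDIT3, XBP1, ATF6, ERN1 and HSPA5 are always named, and of each further list up to 3 called genes per direction with the smallest p are named. ASNS, CHAC1 and the 4 abundant chaperones were described further, and SLC6A9 and CREB3 named, after their values were seen. Some cell type markers are not reported here.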

Additional observations from a re-analysis of the deposited data

How the results depend on the processing

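Of the 22 member calls, 11 held under all 24 alternatives and 11 were lost under at least 1, and no member's fold change that was called in the main analysis changed sign. With OHT against Ctrl, leaving out single libraries gave 2 to 4 ATF4 arm genes lower and 1 to 5 ER arm genes lower, while the ER arm median ran from -0.121 to -0.0512 and the ATF4 arm median from -0.0517 to -0.0024. Removal of the length and GC trend moved these medians to -0.127 and -0.0755, alone and with the replicate block, and with the block 5 ER arm genes were lower. With OHT_Dox against Dox, TMM scaling, edgeR and DESeq2 each gave 1 ER arm gene higher. There, 1 ER arm gene was lower without Dox replicate 1 and OHT_Dox replicate 3, and 2 were lower after trend removal, alone and with the replicate block. The ATF4 arm median ran from -0.0809 to 0.0017 over single-library removals, and the ER arm median was 0.0222 with TMM scaling and 0.0227 with edgeR.

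With Dox against Ctrl, single-library removal gave 0 to 1 ATF4 arm genes higher, 0 to 1 lower, 0 to 2 ER arm genes higher, 0 to 2 lower and 1 to 2 regulators higher. The 2 CPM filter, TMM scaling, edgeR, DESeq2 and the replicate block each gave 1 ATF4 arm gene lower. No filter, TMM scaling, edgeR, DESeq2, removal of the 2 libraries together, trend removal (alone and with the replicate block) and the separate fit each gave 0 ER arm genes higher, and adding the regulators to that arm gave 2. DESeq2 gave 3 ER arm genes lower, and trend removal 1, alone and with the block. Trend removal gave 0 regulators higher, alone and with the block. The ATF4 arm median was -0.0198 with TMM scaling, -0.0273 with edgeR and -0.0251 with DESeq2, and the ER arm median was -0.0925, -0.0925 and -0.0903.

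With OHT_Dox against OHT, 0 to 2 ATF4 arm genes were higher and 0 to 1 lower over single-library removals, and the ATF4 arm median ran from -0.0489 to 0.0537. No filter and removal of the 2 libraries together gave 0 higher, and DESeq2, the replicate block, trend removal with the block and the separate fit gave 2. Removal of the 2 libraries moved that median to -0.0207. For the interaction, single-library removal gave 0 to 1 ATF4 arm genes higher and 0 to 1 ER arm genes lower, with medians from -0.0685 to 0.0429 and from 0.0182 to 0.0679. The ER arm interaction median was 0.0897 with TMM scaling, 0.091 with edgeR, 0.089 with DESeq2 and 0.142 after trend removal, alone and with the replicate block. The cause of these shifts was not tested.

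Samples with the same replicate number did not all deviate together. Correlations of deviations from the group mean ran from -0.17 to 0.12 for OHT and Dox and from -0.01 to 0.13 for Ctrl and Dox. They were positive for the other pairs of groups. These ran from 0.05 to 0.33 (Ctrl and OHT), 0.04 to 0.25 (Ctrl and OHT_Dox), 0.04 to 0.08 (OHT and OHT_Dox) and 0.03 to 0.16 (Dox and OHT_Dox). The correlation of the deviation with GC content was positive in replicate 3 of every group (Spearman 0.12 to 0.53). Not every sample correlated best with its own number, and the labels do not say what a number shares. The main fit therefore did not treat the numbers as pairs. With the replicate block, the genes called over the whole table went from 1061 higher and 487 lower to 1767 and 758 for Dox against Ctrl, and from 95 and 297 to 171 and 460 for OHT_Dox against OHT. The block alone ended no member's call and added CHAC1 and SEL1L (OHT_Dox against Dox), DDIT4 (Dox against Ctrl) and SESN2 (OHT_Dox against OHT). CHAC1, at 1.20 to 3.14 CPM, had the fewest reads of the tested members.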

Other observations

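One gene of the eIF2 list stood apart by level. EIF2B5, the catalytic subunit of eIF2B, was at 2073 to 2234 CPM in the 12 libraries. Per kilobase of exon it stood at 300.2 CPM, against 56.5 for EIF2B1, 17.1 for EIF2B3, 8.81 for EIF2B2 and 7.21 for EIF2B4, which encode subunits of the same complex. The highest annotated gene that overlaps it on the other strand was at 1.35 CPM. The gene was singled out after its values were seen, and the source of the difference was not tested.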
